A study of Mus musculus with 36 samples.

Results

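Liver RNA of mice heterozygous for Apob tm1Unc, a targeted allele of the apolipoprotein B gene, was compared with liver RNA of wild type B6 mice. The comparison rests on 8 of the series' 36 Affymetrix arrays, chosen by title: the 4 named Apob and the 4 named B6, each labelled as a biological replicate. The Apob mice carry Apobtm1Unc as their only strain label, are heterozygotes, and belong to a line whose neural tube defects the labels call resistant to folic acid in the diet. The B6 mice are labelled C57BL/6J and wild type. All 8 were females, aged 6 to 8 weeks, whose food was withdrawn 4 to 5 hours before the liver was taken. The labels do not say what genetic background the Apob allele was kept on, nor that the B6 mice were littermates of the heterozygotes, so effects of the allele and of any other genetic or housing difference between the groups cannot be told apart. The same 4 B6 mice were the controls of Pax3 Sp2H heterozygotes, another line of 4 females of that age, whose defects the labels call responsive to folic acid. The other 6 groups, 4 females each of the same age, only show the level of a gene elsewhere: Lrp6 Cd heterozygotes (Cd-Het) and wild types (Cd-WT), Ct mice of a closed colony taken as ct homozygotes, wild type CBA/CaJ mice (CBA), and Vangl2 Lp heterozygotes (Lp-Het) and wild types (Lp-WT).

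Apolipoprotein B forms the scaffold of very low density lipoprotein (VLDL) particles. Hepatocytes load it with triglyceride in the endoplasmic reticulum and secrete it, and plasma lipases and receptors then remodel and clear the particles. Liver RNA also responds to the sterol content of the cell through SREBP2, to fatty acids through the PPAR nuclear receptors, and to the sex-specific timing of growth hormone pulses, which sets the female and male patterns of many cytochromes, sulfotransferases and transporters.

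The deposited values were MAS5 signals, a linear brightness per probe set, and differences were fitted with limma on log2(signal + 23) over these 8 arrays, Apob minus B6. A log2 difference of 1 is a doubling and is given ± its standard error. Of 45037 probe sets that were not array controls, 27022 had a mean above the 40th percentile and were tested. A feature is called at a Benjamini-Hochberg adjusted p under 0.05 over all of them. Where a gene had several tested probe sets the brightest on average represented it, which gave 13183 genes.

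The tissue label held in both groups: the 13 tested hepatocyte markers summed to signals of 523800 to 622400 on the Apob arrays and 587300 to 656600 on the B6 arrays. None of them was called by limma and 2 had an unadjusted p under 0.05, beside 1.21% and 15.5% of all genes. Of these 13, 12 lay below 0 with a median of -0.16, and of 11 stellate cell markers 8 lay above 0 with a median of 0.21; the part of this in list medians of like size was not tested. Nor did limma call a marker of Kupffer cells (0 of 13, with 1 at an unadjusted p under 0.05), stellate cells (0 of 11, with 3), sinusoidal endothelium (0 of 11, with 2), bile ducts (0 of 5, with 0), lymphocytes (0 of 7, with 1) or erythroid cells (0 of 2, with 1). At the share of all genes, lists this short would hold few or no calls, so their absence says little about cell content. Of 3 tested markers of neighbouring organs, Cela1, a pancreatic elastase gene, was called higher, with signals of 2814, 3575, 3005 and 2757 in Apob heterozygotes and 1390, 1326, 1427 and 1951 in B6 mice. Its difference was 0.99 ± 0.16 (adjusted p = 0.017, and up to 0.105 over 21 alternatives), while the other pancreatic genes measured, Prss2 and Cela2a, gave -0.39 and 0.20 and were not called. The GAPDH control ratio of 3' to 5' signal was 0.729 to 0.789 on the Apob arrays and 0.765 to 0.903 on the B6 arrays. The pyruvate carboxylase ratio separated the groups, at 2.99 to 5.21 on the Apob arrays and 5.99 to 26.59 on the B6 arrays, with B6 replicate 3 the highest. The mean signal of the spiked bacterial control RNAs was 26310, 10010, 17170 and 6632 on Apob replicates 1 to 4 and 20750 to 30260 on the B6 arrays. The part of these technical differences in the results was not tested.

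Few features separated the groups after correction. By adjusted p, 372 probe sets were called, or 1.38% of those tested, with 144 higher (0.533%) and 228 lower (0.844%) in Apob heterozygotes. On the gene level the calls came to 160 of 13183 (1.21%), with 65 in the higher (0.493%) and 95 in the lower direction (0.721%). Changes above 2-fold made up 91 of these (0.69% of genes), and 0.907% of probe sets were both called and past 2-fold. The 4 values of each group did not overlap for 9.9% of tested probe sets (5.28% higher, 4.62% lower) and 9.47% of genes (5.2% higher, 4.28% lower). The median difference was 0.02 over all genes, 53.3% of genes and 54.0% of probe sets lay above 0, 46.0% of probe sets lay below it, so the typical gene was nearly level. The number of calls depended on single arrays: it was 40 probe sets without Apob replicate 3, 56 without B6 replicate 2, 75 without B6 replicate 3, 133 without B6 replicate 1, 141 without Apob replicate 2, 224 without Apob replicate 1, 387 without B6 replicate 4 and 721 without Apob replicate 4. Of the 41 called genes named below under the naming rule, 8 were called under every alternative that gave a value, namely Sult2a2, Erdr1, Pparg, Mfsd2a, Galnt2, Csnk2a1, Sh3d19 and Prmt1, and the other 33 lost the call in at least 1 fit without 1 array, although none of the 41 changed sign.

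**Figure D1:**
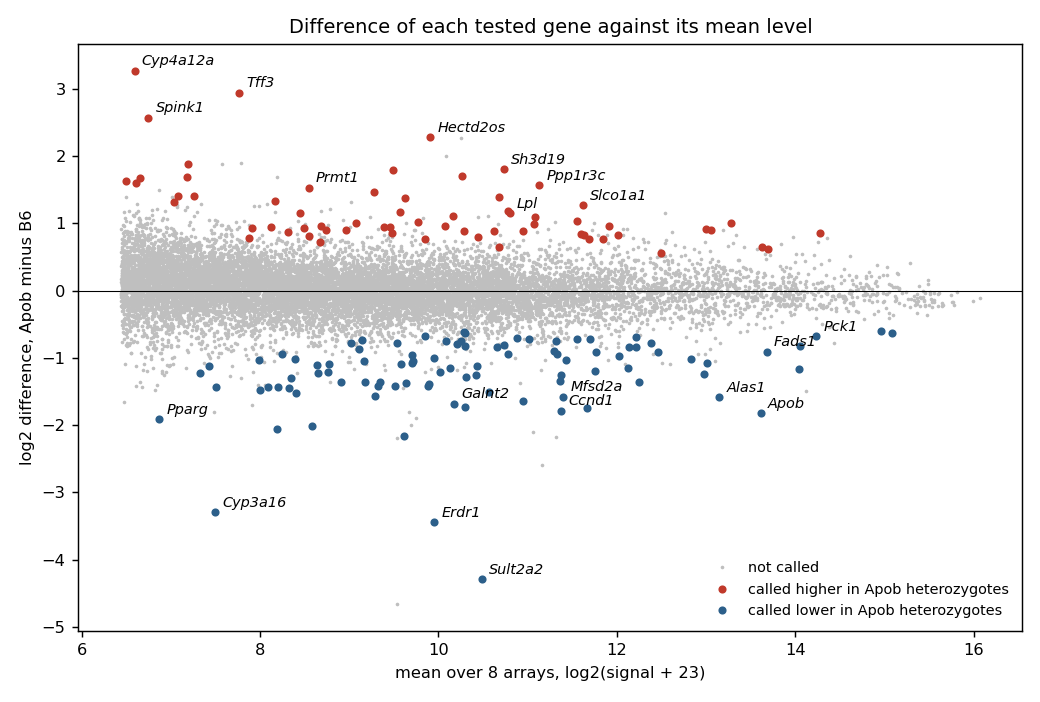
Log2 difference (Apob minus B6) of each of the 13183 tested genes against its mean log2(signal + 23) over the 8 arrays; red points are the 65 genes called higher, blue points the 95 called lower and grey points the rest. The named points run from Sult2a2 at -4.29 to Cyp4a12a at 3.27, and most genes lie close to 0.

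The Apob transcript itself was lower in the heterozygotes. Its main probe set read 2654, 11144, 5339 and 12260.2 in Apob heterozygotes and 25684, 27268, 25070 and 17299 in B6 mice. Every heterozygote lay below every B6 mouse, and replicates 1 and 3 lay well below replicates 2 and 4. Replicates 1 and 3 also had the higher spike signals (26310 and 17170, against 10010 and 6632 on replicates 2 and 4) and pyruvate carboxylase ratios (5.21 and 4.39, against 4.00 and 2.99), and the part of these in the result was not tested. The group means were 7849 ± 4604 in heterozygotes and 23830 ± 4452 in B6 mice (SD, n = 4 each). The fitted difference on the log2(signal + 23) scale was -1.82 ± 0.39 (adjusted p = 0.0447). The call was lost in 5 of the 8 fits without 1 array, those without Apob replicate 3 or any single B6 replicate, and the adjusted p ran from 0.0111 to 0.14 over 21 alternatives. A second Apob probe set read 117, 382, 229 and 501 in heterozygotes and 1826, 3149, 1862 and 550.2 in B6 mice (-2.43 ± 0.49, adjusted p = 0.0366). The labels do not say which part of the gene the allele alters, so the position of either probe set relative to it is not known here. In bulk liver RNA, fewer cells that express a gene and less of its RNA per cell cannot be told apart. The low Apob level did not stand alone in the series: the median signal of the main probe set was 8242 in Apob heterozygotes, 24420 in Pax3 heterozygotes and 25380 in B6 mice, and it was 11480 in Ct, 12510 in Lp-Het, 15560 in Cd-Het and 16280 in Cd-WT mice. On the second probe set the median of Cd-Het (234.5), Cd-WT (266.9) and Ct (302) mice was about that of the Apob heterozygotes (306).

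No gene tested beside Apob on chromosome 12 was called with it. Of its 30 nearest genes in RefSeq order (GRCm38.p6), 15 on each side, 5 were tested, all on 1 side because none of the other 15 has a named probe set here, and limma called none, with 1 at an unadjusted p under 0.05. Their differences ran from -0.24 to 0.46. Rhob, a small GTPase, differed by -0.21 ± 0.13 and Sdc1, a heparan sulfate proteoglycan that binds remnant lipoproteins, by 0.46 ± 0.18. The other tested Sdc1 probe sets went both ways (-0.44, -0.07 and 0.75) and were not called. On all of chromosome 12, 3 of 463 genes were called (0.648%), against 1.21% of all genes.

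Genes that are more abundant in female than in male mouse liver had the lowest median of the 28 gene lists examined. Of 18 tested members, 17 lay below 0, 3 were called lower and none higher, and the median difference was -1.37 beside 0.02 for all genes. Over all genes, 0.721% were called lower and 0.493% higher. Sult2a2, which sulfates bile acids and steroids, read 803, 541, 126 and 135 in Apob heterozygotes and 3480.3, 8662, 7641 and 6906 in B6 mice. The groups lay far apart, and the fitted fall (log2 -4.29 ± 0.51, adjusted p = 0.00612) was the largest among called genes. Cyp3a16, a female-predominant cytochrome P450, read 2.43, 205, 11.01 and 32.7 in heterozygotes and 208, 1388, 326 and 864 in B6 mice (-3.29 ± 0.67, adjusted p = 0.0384). Its groups did not overlap, but heterozygote replicate 2 reached nearly the lowest B6 value. The other heterozygotes lay under the filter signal of 64.1, and Cyp3a16 was not called with no filter. Slco1a4, an organic anion transporter of the sinusoidal membrane, read 1613, 1032, 705 and 1238 in heterozygotes and 2884, 3769, 5887 and 2276 in B6 mice (-1.64 ± 0.29, adjusted p = 0.0261). Sult3a1, another female-predominant sulfotransferase, had the lowest difference of the list (-4.66 ± 1.06) but its groups overlapped and it was not called (adjusted p = 0.0539). It read 38.9, 2257, 17.2 and 61.1 in heterozygotes and 3486, 4404, 1165 and 10589 in B6 mice, so the overlap came from heterozygote replicate 2. Cyp2b13 gave -2.59 ± 0.75 (adjusted p = 0.11), Hao2, a peroxisomal hydroxyacid oxidase, -2.10 ± 0.59 (0.0988), and Slc22a27, an organic anion transporter, -1.90 ± 0.46 (0.066). Cux2, a transcription factor of female liver, differed by -0.04 ± 0.23.

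Genes more abundant in male liver had the highest median of the 28. Of 16 tested members, 15 lay above 0, 3 were called higher (0.493% of all genes) and none lower (0.721%), and the median difference was 0.83. Cyp4a12a, a male-specific fatty acid hydroxylase, read 335, 54.2, 1544 and 164 in Apob heterozygotes and 7.57, 6.57, 5.47 and 13.1 in B6 mice. All heterozygotes lay above all B6 mice and spanned a wide range, from 54.2 on replicate 2 to 1544 on replicate 3. The difference was 3.27 ± 0.69 (adjusted p = 0.0414) on the log2(signal + 23) scale, which understates changes at low signal. All B6 signals of Cyp4a12a lay under the filter signal of 64.1, so it passed the filter through its heterozygote values. With no filter it was not called. Slco1a1, a male-predominant organic anion transporter, read 2895, 4301, 6874 and 6549 in heterozygotes and 2181, 2131, 1325 and 2627 in B6 mice (1.27 ± 0.28, adjusted p = 0.0472), and its second probe set gave 1.62 ± 0.30 (0.0269). C8b, which encodes the beta chain of complement C8, read 4790.4, 4534, 6773 and 6174 in heterozygotes and 3524, 2982, 2589 and 3355 in B6 mice (0.82 ± 0.16, adjusted p = 0.0352). Hsd3b5, a male-specific steroid dehydrogenase, lay higher on every heterozygote array (880.1, 1629.8, 7895 and 4273, against 469, 835, 310 and 654 in B6 mice) but was not called (2.27 ± 0.55, adjusted p = 0.0662). Cyp7b1, an oxysterol hydroxylase, gave 1.09 ± 0.25 (adjusted p = 0.0537). Elovl3, a fatty acid elongase, read 506, 248, 3352 and 397 in heterozygotes and 252, 333, 207 and 288 in B6 mice, so its difference of 1.21 ± 0.59 came mainly from replicate 3.

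The same heterozygote stood out in both lists. The mean deviation of the female-biased genes from their B6 means was -1.62, -0.45, -2.75 and -1.60 on Apob replicates 1 to 4, against -0.27 to 0.18 on the B6 arrays. For the male-biased genes it was 0.71, 0.58, 1.60 and 0.94, against -0.22 to 0.17. Replicate 3 was thus farthest from B6 and replicate 2 nearest to it in both, while every heterozygote lay outside the range of the B6 arrays. Of the 6 called members, Sult2a2 was called in all 8 fits without 1 array. Without Apob replicate 3 the others were not called, each was also lost in 3 to 5 other fits without 1 array, and over all alternatives the adjusted p reached 0.13 for Cyp3a16, 0.085 for Slco1a4, 0.114 for Cyp4a12a, 0.521 for Slco1a1 and 0.245 for C8b. All 8 mice are labelled female, and the 9 probe sets of the Y-linked genes Eif2s3y, Kdm5d and Uty read at most 106 on these 8 arrays and 145 on all 36. Among 18 tested genes of growth hormone receptor signalling limma called none on the representing probe sets (1.21% over all genes). In that list 5 had an unadjusted p under 0.05 (15.5% over all genes). Socs3, a feedback inhibitor of cytokine receptors, gave 0.70 (adjusted p = 0.111), while a second of its probe sets was called higher (1.15 ± 0.25, adjusted p = 0.0453) and the other gave -0.08 (0.922). Igfbp1, a binding protein of insulin-like growth factors, gave -1.04 (adjusted p = 0.13). Ghr, the receptor, gave 0.17, Stat5b, the transcription factor it activates, 0.11, Socs2, a feedback inhibitor, -1.08 (adjusted p = 0.219) and Igf1, its secreted target, -0.07.

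**Figure D2:**
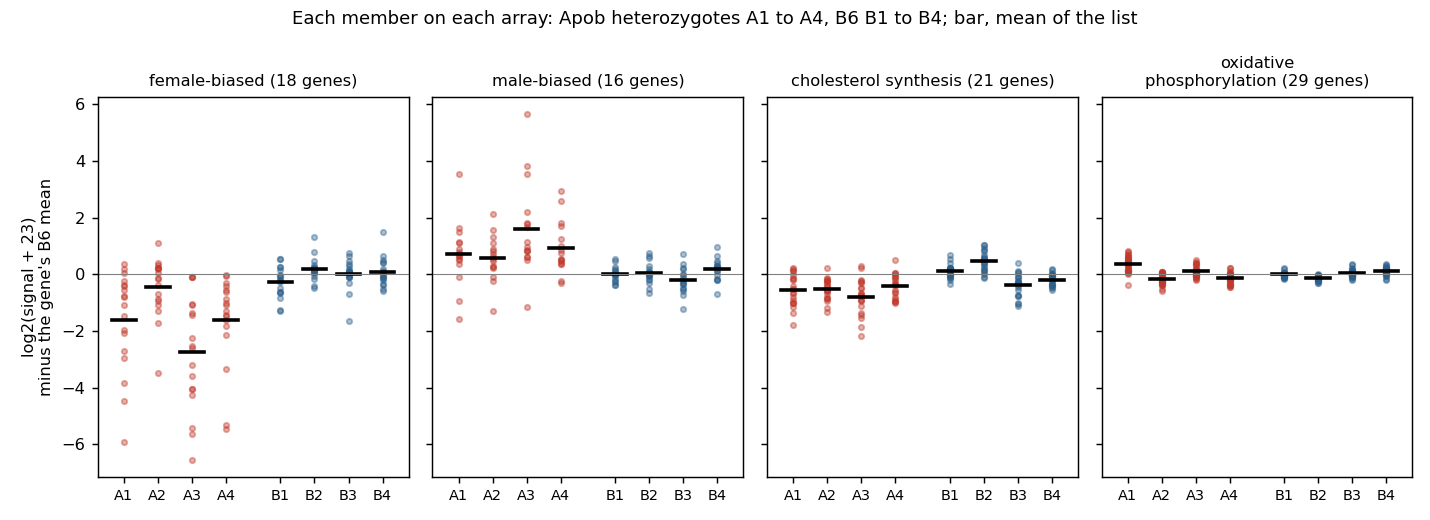
Each point is 1 gene on 1 array, as log2(signal + 23) minus the gene's mean over the 4 B6 arrays, and each bar is the mean of the list; A1 to A4 are the Apob heterozygotes and B1 to B4 the B6 mice. The mean of the female-biased genes lies below 0 and that of the male-biased genes above 0 on all 4 heterozygote arrays, most on A3 and least on A2, while the means of the oxidative phosphorylation subunits lie between -0.17 and 0.36 on the heterozygote arrays, highest on A1.

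Slco1a4 and Slco1a1 are paralogs that lie 3 places apart on chromosome 6 in RefSeq order, and they changed in opposite directions. Their upstream windows are shown because these neighbours moved apart. Each runs over the 250 bases before the RefSeq start of the gene (GRCm38.p6), chr6:141856221-141856470 and chr6:141946963-141947212, both on the minus strand. Capitals mark CCAAT on either strand.
Slco1a4: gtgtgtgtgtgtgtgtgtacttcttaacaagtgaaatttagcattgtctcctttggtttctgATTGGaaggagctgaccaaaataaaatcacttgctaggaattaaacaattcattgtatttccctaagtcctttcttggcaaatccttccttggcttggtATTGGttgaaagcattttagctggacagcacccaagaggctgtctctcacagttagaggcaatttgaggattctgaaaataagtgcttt
Slco1a1: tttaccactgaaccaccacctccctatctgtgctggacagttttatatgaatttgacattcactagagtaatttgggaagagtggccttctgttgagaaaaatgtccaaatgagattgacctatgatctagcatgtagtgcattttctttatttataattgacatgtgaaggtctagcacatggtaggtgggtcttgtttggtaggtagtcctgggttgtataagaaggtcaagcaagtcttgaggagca
The Slco1a4 window holds CCAAT 188 and 89 bases before the start, on the opposite strand, and the Slco1a1 window holds none. Neither holds TTCNNNGAA, the core of STAT5-type sites, searched on both strands. That motif was found in 2 of the 14 female-biased genes with a window, in 1 of 12 male-biased genes and in 7.02% of 32851 mouse windows of the same length.

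Cholesterol synthesis genes lay lower with a smaller and more even shift. Of 21 tested genes of the pathway and its SREBP2 regulation, 20 lay below 0, 2 were called lower and none higher, 6 had groups that did not overlap, and the median difference was -0.60. For comparison, 4.28% of all genes had non-overlapping groups with lower values in heterozygotes, 0.721% were called lower and 46.7% lay below 0. Stard4, a carrier of cholesterol between membranes, read 2108, 2572, 2488 and 2959 in Apob heterozygotes and 3748, 5876, 5114 and 4513 in B6 mice (-0.91 ± 0.16, adjusted p = 0.0261). Tm7sf2, a sterol reductase, read 3812, 4114, 3194 and 3866 in heterozygotes and 5888, 5999, 5445 and 6876 in B6 mice (-0.69 ± 0.13, adjusted p = 0.0308). The groups stood clear of each other on both of these probe sets, but 2 other Stard4 probe sets were not called and gave -0.52 (adjusted p = 0.13) and 0.25 (0.472). Sqle, squalene epoxidase, gave -1.45 ± 0.41 (adjusted p = 0.1), Idi1, an isomerase of isoprenoid precursors, -1.18 ± 0.31 (0.0866), Cyp51, the lanosterol demethylase, -1.07 ± 0.30 (0.0983) and Fdft1, squalene synthase, -0.65 ± 0.19 (0.118). The regulator genes Srebf2 and Insig1 gave 0.11 ± 0.26 and -0.08 ± 0.22, and Scap, the escort protein of SREBP2, -0.60 ± 0.16 (adjusted p = 0.0869). The B6 mice were less even than the heterozygotes: the list's mean deviation was -0.56, -0.53, -0.80 and -0.41 on the Apob arrays and 0.12, 0.45, -0.38 and -0.19 on the B6 arrays. B6 replicate 3 lay close to Apob replicate 4, and neither gene was called without Apob replicate 2, Apob replicate 3, B6 replicate 2 or B6 replicate 3. Tm7sf2 was lost in 6 of the 8 fits without 1 array, with adjusted p values up to 0.0936 for Stard4 and 0.521 for Tm7sf2 over the alternatives.

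Hmgcs1, the synthase that makes HMG-CoA for the pathway, differed between its probe sets. The one that represents it read 6504, 6269, 5879 and 6179 in Apob heterozygotes and 13183, 16658, 8719 and 8622 in B6 mice (-0.87 ± 0.20, adjusted p = 0.0539), while another was called (-1.15 ± 0.21, adjusted p = 0.0272) and read 6143, 5247, 5076 and 5028 against 14148, 17674, 10165 and 7994. The groups were apart on both, and 2 further tested probe sets were not called (-0.80, adjusted p = 0.121, and -0.59, adjusted p = 0.341). Its upstream window is shown with that of Tm7sf2 because the sterol-responsive genes are known to carry a sterol regulatory element beside CCAAT boxes. The windows are the 250 bases before the RefSeq start (GRCm38.p6) at chr13:119690101-119690350 on the plus strand for Hmgcs1 and chr19:6067851-6068100 on the minus strand for Tm7sf2. Capitals mark CCAAT on either strand, which reads ATTGG here, and TCACNCCAC.
Hmgcs1: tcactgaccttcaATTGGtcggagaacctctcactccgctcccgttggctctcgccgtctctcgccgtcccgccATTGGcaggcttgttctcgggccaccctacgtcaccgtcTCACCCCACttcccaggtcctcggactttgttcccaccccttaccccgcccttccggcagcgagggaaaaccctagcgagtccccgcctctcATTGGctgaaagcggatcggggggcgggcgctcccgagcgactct
Tm7sf2: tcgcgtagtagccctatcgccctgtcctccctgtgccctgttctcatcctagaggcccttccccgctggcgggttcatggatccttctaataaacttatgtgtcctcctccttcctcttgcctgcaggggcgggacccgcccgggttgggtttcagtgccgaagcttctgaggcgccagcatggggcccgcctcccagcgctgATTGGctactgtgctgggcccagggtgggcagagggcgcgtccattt
Hmgcs1 held TCACNCCAC 137 bases before its start and CCAAT at 237, 176 and 45 bases, and Tm7sf2 held CCAAT at 47 bases. Of the 17 tested list members with a window in the table, 15 held CCAAT (88.2%), against 33.8% of all windows. Lists with medians near 0 were also above that share, with 76.2% for the unfolded protein response, 64.7% for the circadian clock and 58.3% for the folate and methionine cycles. TCACNCCAC was in 1 of the 17 and in 1.05% of all windows, and the motifs shown do not overlap.

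Pparg, Mfsd2a and Fads1 fell in Apob heterozygotes and Lpl rose. Pparg, the nuclear receptor that drives fat storage, read 49.6, 32.9, 39.3 and 30.0 in Apob heterozygotes and 245, 204, 199 and 173 in B6 mice. The 2 groups were tight and far apart (-1.91 ± 0.23, adjusted p = 0.00612), and the call held under all 19 alternatives that gave a value. All heterozygote signals of Pparg lay under the filter signal of 64.1, so it passed the filter through its B6 values. The size of a fall to such low signals depends on the processing, and it ran from -2.22 to -1.40 over the alternatives. Mfsd2a, a transporter of lysophosphatidylcholine that carries polyunsaturated fatty acids, read 1687, 979, 2354 and 1457 in heterozygotes and 6071, 4194, 3905 and 4688 in B6 mice (-1.58 ± 0.24, adjusted p = 0.0133). Fads1, the delta-5 desaturase, read 8565, 10162, 8728 and 10988 in heterozygotes and 17343, 19029, 20423 and 15375 in B6 mice (-0.91 ± 0.13, adjusted p = 0.013), and its second probe set also fell (-1.53 ± 0.26, adjusted p = 0.0212). Its first call was lost without Apob replicate 3 or B6 replicate 2, with an adjusted p of at most 0.0591. Lpl, the lipase that hydrolyses triglyceride of circulating lipoproteins, read 2421, 2272, 2930.0 and 2977 in heterozygotes and 1238, 1210.3, 1714 and 728 in B6 mice (1.15 ± 0.22, adjusted p = 0.0327), and this rise was lost in 5 of the 8 fits without 1 array (adjusted p up to 0.128). Classical Pparg-linked genes of lipid droplets were not called: Cd36 gave -0.13, Cidec -0.47, Plin2 -0.40, Plin4 -0.95 and Fabp4 0.20. The 17 tested genes of this list had a median of -0.35.

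The remaining lipid lists shifted less, and their calls stand beside 1.21% of all genes. Of 19 tested genes of VLDL assembly, Apob alone was called, and Mttp, the transfer protein that loads apolipoprotein B with lipid, gave -0.25 (adjusted p = 0.339), with a list median of -0.11. Of 20 genes of lipoprotein clearance and remodelling, Lpl alone was called. Pltp, the phospholipid transfer protein, gave -0.78 (adjusted p = 0.064) and the list median was -0.15. Among 23 genes of fatty acid and triglyceride synthesis, Fads1 alone was called, 17 lay below 0 and the median was -0.28. Fasn, fatty acid synthase, read 3514, 3687, 2506 and 6275 in Apob heterozygotes and 7504, 7903, 4016 and 3235 in B6 mice, so its groups overlapped (-0.48 ± 0.32).

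Of 15 tested PPAR alpha targets, 14 lay below 0 with a median of -0.47. Pex11a, a peroxisomal membrane protein, read 4915, 3596, 3859 and 4122 in Apob heterozygotes and 7614, 6555, 8382 and 8410.4 in B6 mice (-0.91 ± 0.14, adjusted p = 0.0152), and was the member called lower, though not without Apob replicate 3 or B6 replicate 3 (adjusted p up to 0.167 over the alternatives). The member called higher was Cyp4a12a, described above as male-specific. Ppara itself gave -1.08 ± 0.24 (adjusted p = 0.0514), and heterozygote replicate 4 (6228) overlapped B6 replicate 4 (5675). None of 26 genes of mitochondrial and peroxisomal fatty acid oxidation was called by limma, beside 1.21% of all genes. Of these 26, 10 had an unadjusted p under 0.05, beside 15.5% of all genes, and 20 lay below 0 with a median of -0.22. Their mean deviation was even, between -0.20 and -0.17 on the Apob arrays and between -0.04 and 0.06 on the B6 arrays. Eci1, an enoyl-CoA isomerase, had the smallest p of the list and read 6266, 5963, 6666 and 6470.1 in heterozygotes and 8336, 8549, 9333 and 9677 in B6 mice (-0.50 ± 0.11, adjusted p = 0.0548).

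Single genes of other liver functions changed. Ppp1r3c, a subunit that targets protein phosphatase 1 to glycogen, rose, with 3687, 6316, 2627 and 3546 in Apob heterozygotes and 859, 1338, 1699 and 1364 in B6 mice (1.57 ± 0.26, adjusted p = 0.02). Pck1, a rate-setting enzyme of glucose production, fell, with 16957, 14977, 17633 and 11982 in heterozygotes and 28231, 23554, 23299 and 22680 in B6 mice (-0.68 ± 0.14, adjusted p = 0.0414). The other tested Pck1 probe sets overlapped and were not called (-0.56, adjusted p = 0.17, and -0.10, adjusted p = 0.854). G6pc, glucose-6-phosphatase, gave -0.94 (adjusted p = 0.0739). The 20 tested genes of glucose and glycogen metabolism had a median of -0.26, with 15 below 0. Alas1, the first enzyme of heme synthesis, read 4321, 2922, 9419 and 6214 in heterozygotes and 11668, 20142, 13748 and 18627 in B6 mice (-1.58 ± 0.30, adjusted p = 0.031). Cyp2c37, a drug- and arachidonate-metabolising cytochrome, read 11514, 15202, 11231 and 8019 in heterozygotes and 21672, 28945, 25153 and 25310.3 in B6 mice (-1.16 ± 0.18, adjusted p = 0.0145). Neither gene's groups overlapped on these probe sets, but they did on another Alas1 probe set, which was not called (-1.70, adjusted p = 0.13). Abcc2, the canalicular export pump of conjugated anions, differed by -0.72 ± 0.15 (adjusted p = 0.0384), whereas Cyp7a1, which sets the rate of bile acid formation, gave -2.17 with overlapping groups (adjusted p = 0.0547). Lcn2, an acute phase protein that binds bacterial siderophores, read 2044, 1304, 857 and 1070 in heterozygotes and 293, 401, 773 and 507 in B6 mice (1.39 ± 0.30, adjusted p = 0.0462). It was the only called gene of 25 acute phase genes, beside 1.21% of all genes, and it lost the call under 13 of 20 alternatives. Pck1 lost it under 11 of 21 (adjusted p up to 0.117), Alas1 under 7 (0.105), Cyp2c37 under 4 (0.177), Abcc2 under 11 of 20 (0.255), and Ppp1r3c under 3, of which 1 left out B6 replicate 2 (0.0643).

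Of 24 genes of G1 cyclins and the cell cycle, Ccnd1 (cyclin D1) alone was called, beside 1.21% of all genes. It read 876, 2090.0, 868 and 2447 in Apob heterozygotes and 3742, 5518, 6994 and 4027 in B6 mice (-1.79 ± 0.33, adjusted p = 0.0284), and 2 further probe sets gave -2.11 (adjusted p = 0.0317) and -1.58 (0.0996). As for Apob, replicates 1 and 3, with the higher spike signals, were the lowest. The proliferation markers Mki67 and Top2a gave 0.15 and -0.04. The call was lost without any 1 of Apob replicates 1 and 3 and B6 replicates 1, 2 and 3 (adjusted p up to 0.0985 over the alternatives).

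Several of the largest rises belonged to genes outside the metabolic lists. Tff3, a secreted trefoil peptide of mucosal epithelia, read 524, 216, 1325 and 724 in Apob heterozygotes and 21.9, 52.4, 40.7 and 150 in B6 mice (2.95 ± 0.50, adjusted p = 0.0203). Spink1, a trypsin inhibitor, read 279, 89.3, 464 and 262 in heterozygotes and 16.3, 6.10, 65.6 and 14.03 in B6 mice (2.57 ± 0.45, adjusted p = 0.0237). In both, as in Cyp4a12a, replicate 3 was the highest heterozygote and replicate 2 the lowest. Both calls were lost without Apob replicate 3 and in 3 other fits without 1 array, with adjusted p values of at most 0.0678 for Tff3 and 0.182 for Spink1 over the alternatives. The mean B6 signal of Spink1 (25.51) lay under the filter signal of 64.1, so it passed the filter through its heterozygote values. Sh3d19, an adaptor protein, read 2648, 3353, 3328 and 3350.0 in heterozygotes and 1102, 1022, 1105 and 493 in B6 mice (1.80 ± 0.24, adjusted p = 0.00863). Another Sh3d19 probe set was also called higher (2.06, adjusted p = 0.00523), while the remaining tested one was level (0.05, adjusted p = 0.918). Prmt1, the main protein arginine methyltransferase, read 689, 552, 665 and 561 in heterozygotes and 166, 181, 227 and 219 in B6 mice (1.53 ± 0.17, adjusted p = 0.00523). The Prmt1 values were tight within each group, while for Sh3d19 B6 replicate 4 (493) lay well below the other B6 mice. The Sh3d19 and Prmt1 calls held under all 20 alternatives that gave a value. No other of the 14 tested genes in the list of protein arginine and DNA methyltransferases was called, beside 1.21% of all genes. The list also holds genes that are not methyltransferases, such as Wdr77, Btg1 and Btg2. Slc3a1, a subunit of an amino acid transporter, rose by 1.71 ± 0.27 (adjusted p = 0.0161, but 0.0638 at most, without Apob replicate 3 or without the variance trend). Polr3k, an RNA polymerase III subunit, gave 1.79 ± 0.38 (0.0431) on a probe set whose name ends in x, which marks probes that can bind other transcripts, and its 3 other tested probe sets gave 0.31 to 0.51 and were not called. Pidd1, a p53-induced scaffold protein, gave 1.88 ± 0.39 (0.041), and the other 11 tested p53 pathway genes were not called, again beside 1.21% of all genes. Dnah5, an axonemal dynein (1.67), Prm2, a sperm protamine (1.63), and Btk, a kinase of B cells (1.61), read higher, and none of their B6 signals was above 83.8. Their mean B6 signals (37.25, 34.29 and 35.33) lay under the filter signal of 64.1, so they passed the filter through their Apob values. Dnah5, Prm2, Btk, Polr3k and Pidd1 each lost the call in 5 to 7 of the 8 fits without 1 array. With no filter, all of these but Btk lost it.

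Hectd2, its antisense transcript Hectd2os and Ppp1r3c are consecutive genes on chromosome 19 in RefSeq order, and all rose. Hectd2os read 3105, 2395, 2236 and 1161 in Apob heterozygotes and 321, 434, 261 and 778 in B6 mice (2.29 ± 0.34, adjusted p = 0.013). Hectd2, a ubiquitin ligase gene, read 213, 299, 275 and 178 in heterozygotes and 63.1, 76.8, 23.8 and 82.6 in B6 mice (1.69 ± 0.29, adjusted p = 0.0212). The groups were apart in each of the 3 genes. Without Apob replicate 3 Hectd2os and Hectd2 were not called (adjusted p up to 0.077 and 0.0816 over the alternatives). Other called genes that are direct neighbours were C8b and C8a on chromosome 4, the beta and alpha chain genes of complement C8 (0.82 and 1.00), Prm2 and Prm1 on chromosome 16 (1.63 and 1.17), and Tfb2m and Cnst on chromosome 1 (-0.83 and -0.87). Each of these pairs moved in 1 direction. Within 10 places, other pairs of called genes went both ways. Sdc4 and Pigt moved together, as did Nat8f2 and Nat8f1. Ppp1r3c and 4931408D14Rik (1.57 and -1.2) and Cox15 and Abcc2 (1.02 and -0.72) moved in opposite directions. So did Sdr9c7 and Hsd17b6 (0.95 and -0.82), Alkbh8 and Cwf19l2 (-0.78 and 0.95), and Slco1a4 and Slco1a1. Neighbours were sought after the calls were known, among 159 called genes with a place in the gene order.

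Other large falls were those of Erdr1, St3gal6, Sema3f, Slc25a30, Csnk2a1 and Galnt2. Erdr1, a gene named for erythroid differentiation, read 616, 267, 174 and 196 in Apob heterozygotes and 2201, 2677, 4296 and 4345 in B6 mice (-3.45 ± 0.35, adjusted p = 0.00332) on a probe set ending in x, and its other probe set gave -0.35 (adjusted p = 0.535). Galnt2, which starts mucin-type O-glycosylation, read 605, 671, 595 and 618 in heterozygotes and 1862, 2171, 2242 and 1934 in B6 mice. This was the smallest adjusted p among all probe sets (-1.68 ± 0.13, adjusted p = 0.00082). A second Galnt2 probe set also fell (-1.21, adjusted p = 0.015) and the other did not (-0.11, adjusted p = 0.737). Csnk2a1, the catalytic subunit of casein kinase 2, fell on 1 probe set (-1.73 ± 0.23, adjusted p = 0.00931), while its 4 other tested probe sets ran from -0.43 to 0.18 and were not called. St3gal6, a sialyltransferase, gave -2.15 ± 0.37 (0.0212) and was likewise called on 1 of 3 probe sets, whose name ends in x. Sema3f, a secreted guidance factor, gave -2.02 ± 0.30 (0.0133), also on a probe set ending in x, and Slc25a30, a mitochondrial carrier, -1.74 ± 0.36 (0.041). Sema3f lost its call without Apob replicate 3 (0.053), St3gal6 in 3 of the 8 fits without 1 array and Slc25a30 in 6 of them.

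**Figure D3:**
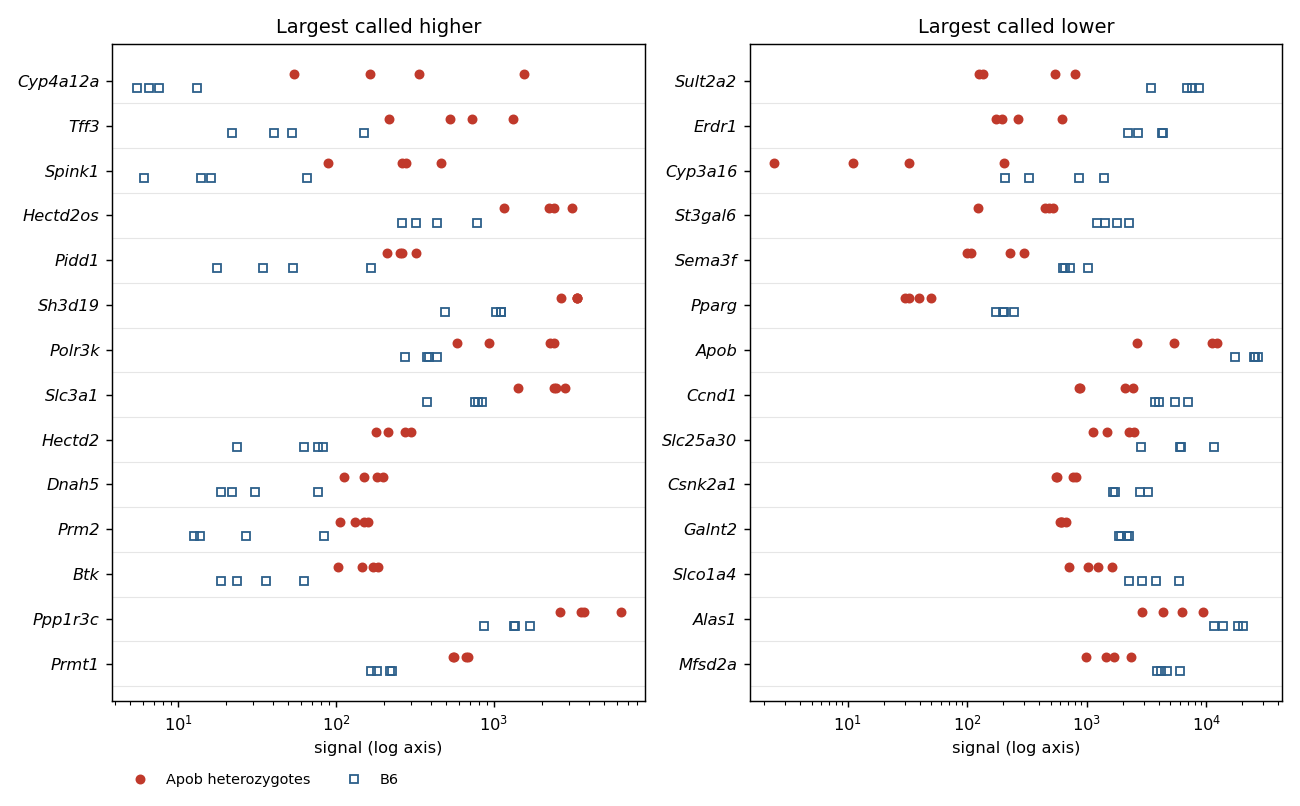
Signal on each array (log axis) of the 14 genes with the largest rise (left) and the 14 with the largest fall (right) of the called genes with separate groups; red circles are the 4 Apob heterozygotes and open blue squares the 4 B6 mice. The groups are apart in every row because the rule requires it; Galnt2, Pparg and Prmt1 are tight within groups, while Cyp4a12a and Cyp3a16 spread widely among the heterozygotes.

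Probe sets of 1 gene did not always agree. Of the 228 probe sets called lower, 95 were the one that represents its gene. The genes with a probe set called lower had 344 other tested probe sets, of which 213 also lay below 0, with a median of -0.14. For genes with a probe set called higher, 116 of 148 others lay above 0, with a median of 0.27. At least 2 probe sets were called lower for 16 genes, among them Apob, Ccnd1, Fads1, Galnt2 and, with 3 probe sets, Mgll, the monoglyceride lipase (-1.25 to -0.80). At least 2 were called higher for 10 genes, among them Slco1a1, Ppp1r3c, Sh3d19 and, with 3, Klf9, a glucocorticoid- and thyroid hormone-responsive transcription factor (0.93 to 1.74). Mgll and Klf9 were picked out after their values were seen. Klf9 was mixed, since its 4 other tested probe sets gave 0.04 to 0.37 and were not called. Xist, the RNA that silences the inactive X chromosome, was also picked after its values were seen. It read 1411, 1675, 1480.5 and 2531 in Apob heterozygotes and 4781, 12393, 10586 and 5100 in B6 mice on 1 probe set (-2.11 ± 0.30, adjusted p = 0.013) and gave -2.84 ± 0.36 (adjusted p = 0.0074) on another. The remaining Xist probe set was not called (0.04 ± 0.38, adjusted p = 0.974). In Cd-Het and Cd-WT mice the medians of the first were 2675 and 2997, between the Apob (1578) and B6 (7843) medians.

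Among the lists outside lipid and sex-biased metabolism, those with no called gene included 6 with medians near that of all genes. No gene was called by limma among 29 oxidative phosphorylation subunits (0 with an unadjusted p under 0.05), 28 of the folate and methionine cycles (6), 22 of the unfolded protein response (4), 19 of the circadian clock (3), 17 interferon-stimulated genes (2) or 10 heat shock proteins (2). Over all genes, 1.21% were called and 15.5% had an unadjusted p under 0.05. Medians of these 6 lists ran from -0.04 to 0.07. The single called gene of the urea cycle list was Ass1, argininosuccinate synthase, on a probe set that read 193, 147, 156 and 194 in Apob heterozygotes and 370, 825, 521 and 409 in B6 mice (-1.44 ± 0.24, adjusted p = 0.0191). It was not called without Apob replicate 3 or B6 replicate 3 (adjusted p up to 0.232 over the alternatives). No other probe set is named Ass1 here, and the signals of this one are low. The 9160 probe sets without a name were not assigned to genes, so the level of Ass1 RNA as a whole is not settled here. The other 19 tested members, including Cps1 (0.05), Otc (0.12) and Arg1 (-0.11), were not called.

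**Figure D4:**
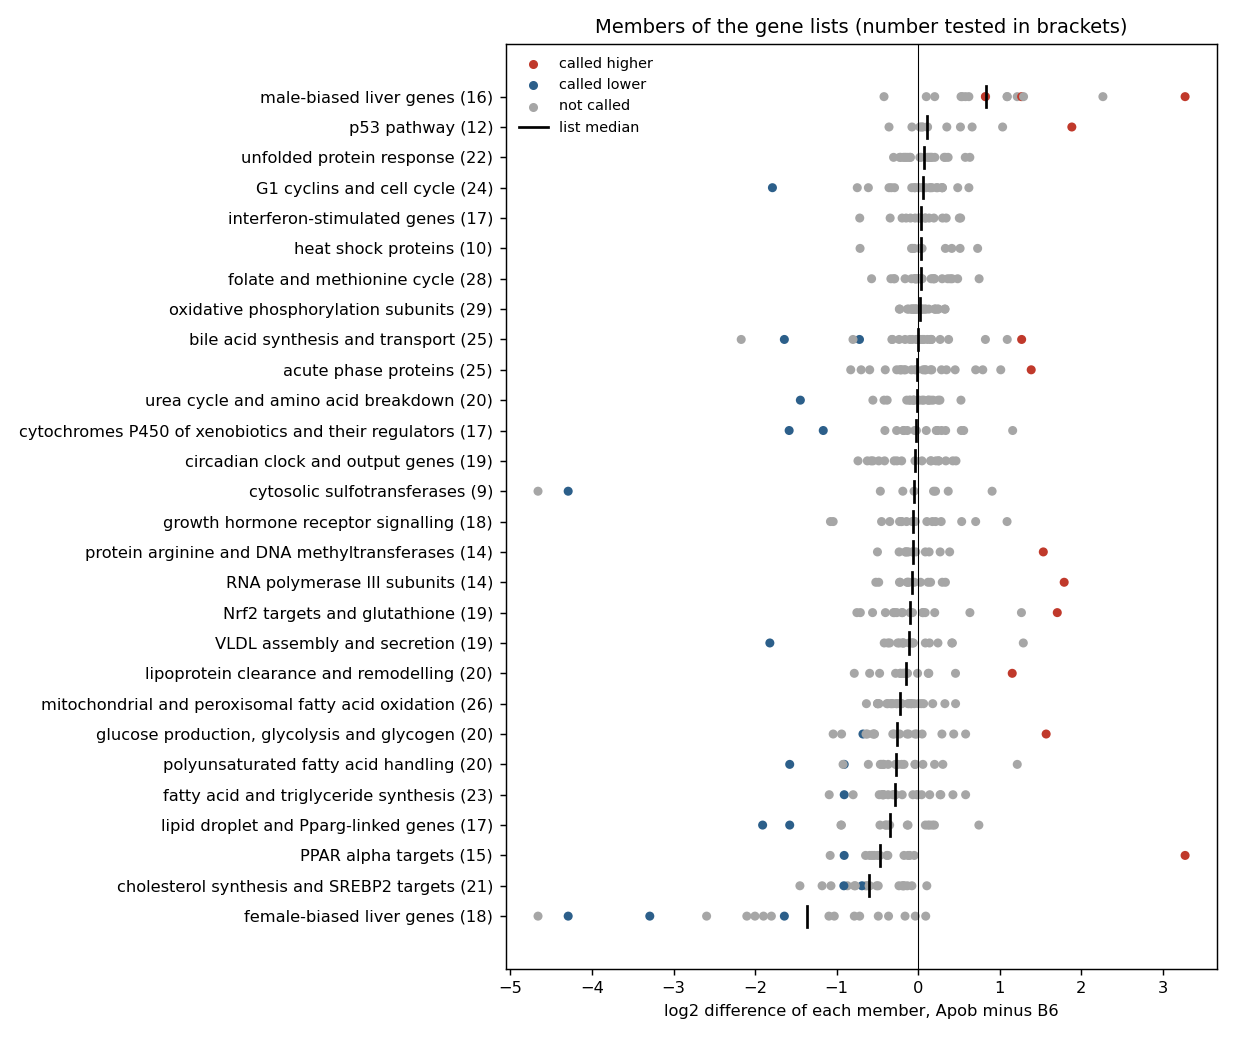
Log2 difference (Apob minus B6) of every tested member of 28 gene lists, with called members in red (higher) or blue (lower), other members in grey and the list median as a black bar. Female-biased genes have the lowest median (-1.37), cholesterol synthesis genes follow (-0.60), and male-biased genes have the highest (0.83).

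The levels of the called genes were then set beside those of the other 7 groups. Among probe sets called lower, the Apob mean was the lowest of all 9 groups for 96 (42.1%), against 7.16% of all tested probe sets, and the B6 mean was the highest of the 9 for 86 (37.7%), against 8.31%. Among those called higher, the Apob mean was the highest of 9 for 86 (59.7%), against 16.1%, and the B6 mean was the lowest for 62 (43.1%), against 8.05%. Because a call requires Apob and B6 to differ, these shares are raised by the choice of the probe sets and are descriptions. For some genes the Apob median stood apart from all others, although single arrays of other groups reached the Apob range. The median of Sult2a2 was 338 in Apob heterozygotes and between 7273 and 36950 in the other 8 groups, and that of Cyp4a12a was 250 in heterozygotes and between 5.29 and 48.6 elsewhere. Lp-Het replicate 4 read 594 for Sult2a2, within the Apob range. For Cyp4a12a, Lp-Het replicates 2 and 4 (57.7 and 254), CBA replicate 4 (139), Ct replicate 3 (104) and Lp-WT replicate 3 (71.3) lay above the lowest Apob heterozygote. Others had low or high levels elsewhere as well. Pparg had a median of 36.1 in Apob heterozygotes, 39.1 in Lp-Het and 17.6 in Lp-WT mice, Galnt2 had 612 in heterozygotes, 668 in Cd-Het and 662 in Cd-WT mice, and Csnk2a1 had 671 in heterozygotes, 697 in Cd-Het and 754 in Cd-WT mice. Prmt1 had 613 in heterozygotes and 569 in Cd-WT mice, but 362 in Cd-Het mice. Slco1a1, higher in Apob heterozygotes (5425) than in B6 mice (2156), had still higher medians in Ct (8959) and CBA (8293) mice and was near 190 in Cd-Het mice.

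**Figure D5:**
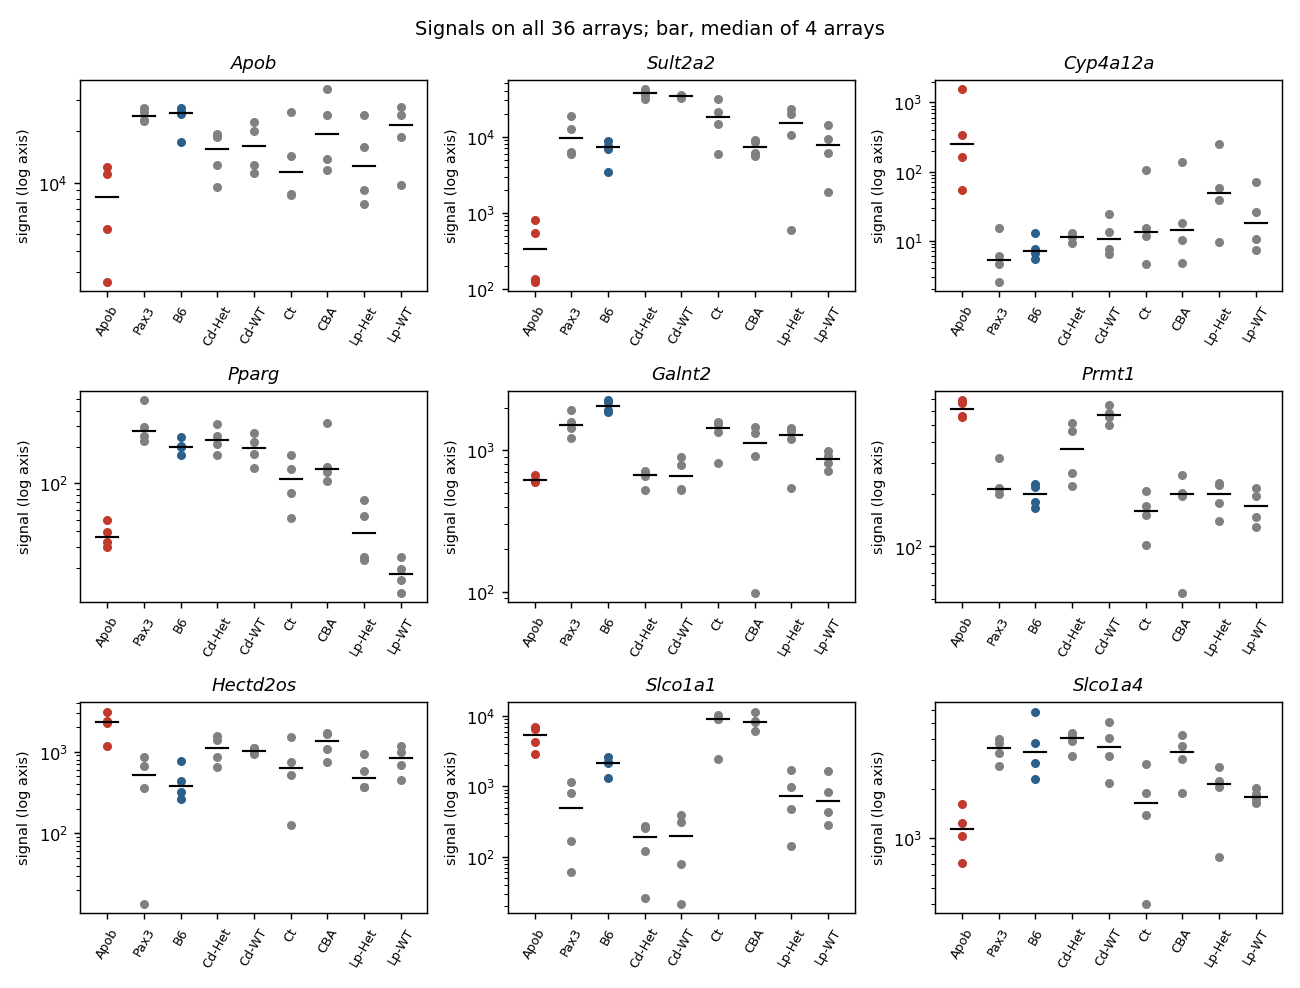
Signal (log axis) of 9 genes on all 36 arrays, with the Apob heterozygotes in red, the B6 mice in blue, the other groups in grey and each group's median as a bar. The medians of Sult2a2 and Cyp4a12a set the Apob group apart although single arrays of Lp-Het mice (both genes) and of Ct, CBA and Lp-WT mice (Cyp4a12a) reach its range, while Pparg, Galnt2 and Prmt1 reach similar levels in at least 1 other group.

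The direct comparison with Pax3 heterozygotes, which uses no B6 array, called 728 probe sets (2.69%), 153 higher (0.566%) and 575 lower (2.13%) in Apob heterozygotes. Over genes the counts were 224 of 13059 (1.72%), 74 higher (0.567%) and 150 lower (1.15%). Apob differed by -1.89 (adjusted p = 0.0293), Sult2a2 by -4.90 (0.00357), Erdr1 by -3.44 (0.00435), Pparg by -2.41 (0.00357), Galnt2 by -1.26 (0.00435), Slco1a4 by -1.63 (0.00581) and Mfsd2a by -1.48 (0.0361), all lower in Apob heterozygotes. Slco1a1 differed by 3.80 (0.0173), Cyp4a12a by 3.34 (0.0316), C8b by 1.64 (0.004), Prmt1 by 1.31 (0.0059) and Sh3d19 by 1.08 (0.0186), all higher. Other calls against B6 were not called against Pax3: Tff3 gave 1.47 (0.253), Spink1 0.65 (0.699), Lpl 0.36 (0.687), Stard4 -0.54 (0.181), Tm7sf2 -0.31 (0.638), Cyp2c37 -0.32 (0.715) and Lcn2 -0.17 (0.808). The same held for Cyp3a16, Hectd2os, Hectd2, Ppp1r3c, Ccnd1, Alas1, Pck1, Pex11a, Sema3f, St3gal6, Slc25a30, Pidd1, Polr3k, Prm2 and Btk (adjusted p 0.0597 to 0.381). On some of these genes Pax3 replicate 3 stood apart from the other Pax3 mice. It read 970 for Spink1 (others 10.9 to 134), 6324 for Lpl (1059 to 1800) and 4828 for Cyp2c37 (17241 to 24044). For Tm7sf2 it read 2068 (4684 to 7089) and for Hectd2os 13.6 (361 to 863). The part of this array in the missing calls was not tested. Slc3a1, Dnah5, Csnk2a1, Cela1, Fads1, Abcc2 and the low-signal probe set named Ass1 were called in both comparisons, in the same direction. That probe set does not settle the level of Ass1 RNA as a whole. Of the genes named by rule and called against B6, more were not called against Pax3 than were called. Pax3 medians lay between those of Apob heterozygotes and B6 mice for Tff3 (181) and Spink1 (128), and Lcn2 reached 1554 in Pax3 mice. The 2 comparisons share the Apob arrays, so their values are given side by side and their overlap was not tested.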

How the data were processed

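Per the submitters' processing notes, the authors computed the deposited signal intensity of each probe set with MAS5, whose version is not given in the sources used here. The 2% trimmed mean was 500.0 on every array, as computed here, so the arrays carried 1 common scale. A probe table of the platform gave 1 gene symbol to 34945 probe sets and several to 932, and left 9160 unnamed here. Symbols were updated through Entrez IDs to RefSeq (GRCm38.p6, 34741 matched), which also gave the gene order and the upstream sequences. Per-sample columns of no sample in the series numbered 0.

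Values were analysed as log2(signal + 23), with probe sets tested where the mean over the 8 arrays passed a log2 value of 6.44 (a signal of 64.1). Linear models with 1 mean per group were fitted with limma 3.58.1 in R 4.3.3 with an intensity trend, two-sided, with Benjamini-Hochberg adjustment over all tested probe sets. The procedure was tested on simulated data. Genes were named by rule: Apob, the 14 largest called rises and 14 largest called falls with non-overlapping groups, up to 4 called members of each list or otherwise the 2 with the smallest p, and the called neighbours of Apob, or otherwise the 2 with the smallest p. Other members of a list described in depth, and the genes said to be picked after their values were seen, fall outside this rule. The comparison, the gene lists and the naming rule were chosen with earlier results of these data known, so the lists are no independent evidence. Other tables and figures used Python 3.11.15 and matplotlib 3.10.9. Precision is limited by the small number of arrays, 4 a group, and p-values measure the spread between mice labelled biological replicates. Alternatives covered normalization, the offset, the filter, the variance model, the arrays fitted, the probe sets kept, a replicate block and the removal of each array.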

Additional observations from a re-analysis of the deposited data

Results flagged for a closer look

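In 118 groups of 4 arrays, from the named genes in Apob heterozygotes and in B6 mice, 6 held an array whose gap to its nearest neighbour, as a share of the group's range, passed Dixon's 95% limit. Chance flags about 1 in 20 groups, so 6 of 118 is near that rate. Sh3d19 was lowest on Apob replicate 1 (2650) and, among B6 mice, on replicate 4 (493). Slc3a1 was lowest on B6 replicate 4 (378). St3gal6 was lowest on Apob replicate 3 (122), Eci2, an enoyl-CoA isomerase, on Apob replicate 1 (8090) and Igfbp1, an insulin-repressed binding protein, on Apob replicate 2 (3180).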

How the results depend on the processing

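Against 372 probe sets called between Apob heterozygotes and B6 mice, the count was 574 with quantile normalization, 573 with median centring, 226 with no filter, 66 with no variance trend, 866 with array weights, 210 with all 36 arrays in the fit, 756 with all arrays but CBA replicate 4 and Ct replicate 3, and 186 with 1 probe set per gene. It ran from 40 to 721 when 1 array was left out, and from 263 to 451 under the other alternatives without a block. Median centring moved the share of higher calls to 23.6%, against 38.7%, and array weights left it at 46.3%. Against 728 probe sets called between Apob and Pax3 heterozygotes, the count was 1128 with median centring, 1364 with array weights, 1261 with all arrays but the 2 named, and 131 with 1 probe set per gene, and it ran from 232 to 820 when 1 array was left out. The replicate numbers, which the labels share between groups, did not pair the arrays: same-numbered Apob and B6 arrays correlated at -0.014, 0.083, 0.005 and -0.032 in their deviations. With a replicate block, 241 probe sets were called against B6 and 781 against Pax3. Among the 41 called genes that were named by rule, none changed sign under any of the 21 alternatives. Without a variance trend 12 of them stayed called, and without Apob replicate 3, 11. The causes were not tested. With 4 arrays a group, precision is limited by the number of arrays.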
